A study of Mus musculus with 2 samples.

Results

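The G1 cyclins and their kinases are the D-type cyclin genes Ccnd1, Ccnd2 and Ccnd3, the E-type cyclin genes Ccne1 and Ccne2, and the kinase genes Cdk2, Cdk4 and Cdk6. They were chosen by name and make up 8 of the 21887 protein-coding genes examined on the autosomes and sex chromosomes. Their chromatin was looked at in nephron progenitor cells of wild-type mouse kidneys at E16.5, fetal cells whose descendants form the nephron epithelium, which were cultured before crosslinking with formaldehyde. There was 1 library made with an antibody against Hdac1 and 1 made with an antibody against Hdac2, each from 3750000 cells, with 0.5 µg of Hdac1 antibody and 1 µg of Hdac2 antibody. Both libraries came from cells of the same kind, so the antibody and its amount are what the labels say differed. With no replicate, no test between the antibodies is possible, and the read depth behind each list is unknown.

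The data are islands, stretches of mm10 called by the authors as enriched in reads. The authors gave every island a number that is its p-value or q-value, and which of these it is remains unknown here. An island was counted at a gene end when it came within 1 kb of the first or last base of the annotated gene. The value of an island is also given as its percentile within its own list, where 100 is the lowest value. Such ranks say nothing of how much protein was bound. The lists differ in length and their depth is unknown, so a gene's percentiles in both are given side by side and no difference is read from them.

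D-type cyclins are made in response to growth signals and activate Cdk4 and Cdk6, which phosphorylate the retinoblastoma protein and so release E2F transcription factors. E2F factors switch on the E-type cyclin genes, whose products activate Cdk2 and carry the cell into S phase. Hdac1 and Hdac2 remove acetyl groups from histones and work within complexes such as CoREST, NuRD and Sin3, and pocket proteins of the retinoblastoma family are known to recruit such complexes to E2F-bound promoters. Nephron progenitors divide to keep up their own number while giving off cells that form nephrons, and their pool is used up around birth in the mouse.

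Islands were also counted at marker genes of the labelled cell type and of other kidney cells. Hdac1 islands lay at an end of all 9 nephron progenitor markers and Hdac2 islands at 7, Pax2 and Meox1 being those without. Over all protein-coding genes the shares were 60.7% for Hdac1 and 31.7% for Hdac2. Of the markers of other cells, 2 and 1 of 3 ureteric bud genes, 3 and 2 of 3 stromal genes, 1 and 0 of 4 endothelial and blood genes and 0 and 0 of 4 podocyte and tubule genes had Hdac1 and Hdac2 islands. Islands do not measure expression, and stromal genes had them too, so these counts do not establish the cell type. What part stromal or ureteric cells had in the results below was not tested.

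Hdac1 lay at an end of all 8 genes, whereas 60.7% of all protein-coding genes had an Hdac1 island there. An Hdac2 island lay at an end of 7 of them, all but Cdk4, whereas 31.7% of all genes had one. When the upper 50% of each list by value was used, Hdac2 lay at an end of 3 of the 8 genes and of 15.8% of all genes. Both were therefore present at 7 genes, against 30.7% of all genes, and at 6 of them, all but Cdk2, the strongest islands of the 2 lists overlapped, against 29.6% of all genes. All genes with Hdac1 at an end were also ranked by that island's value and cut into 10 groups of equal size. Hdac2 lay at an end of 11.7% of the lowest group and 88.5% of the highest. Ccnd2, Ccne1 and Ccne2 were in the highest group, and the other genes in groups with 29.8% to 81.7%. Whether 7 of 8 exceeds the share at such Hdac1 ranks was not tested. The strongest Hdac1 islands at the 8 genes had a median width of 3.1 kb and a median percentile of 92.3, beside 2.4 kb and 79.1 over all genes with such an island. The strongest Hdac2 islands at the 7 genes that had one had a median width of 2.4 kb and a median percentile of 33.3, beside 2.4 kb and 49.7 over all genes with one.

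**Figure D1:**
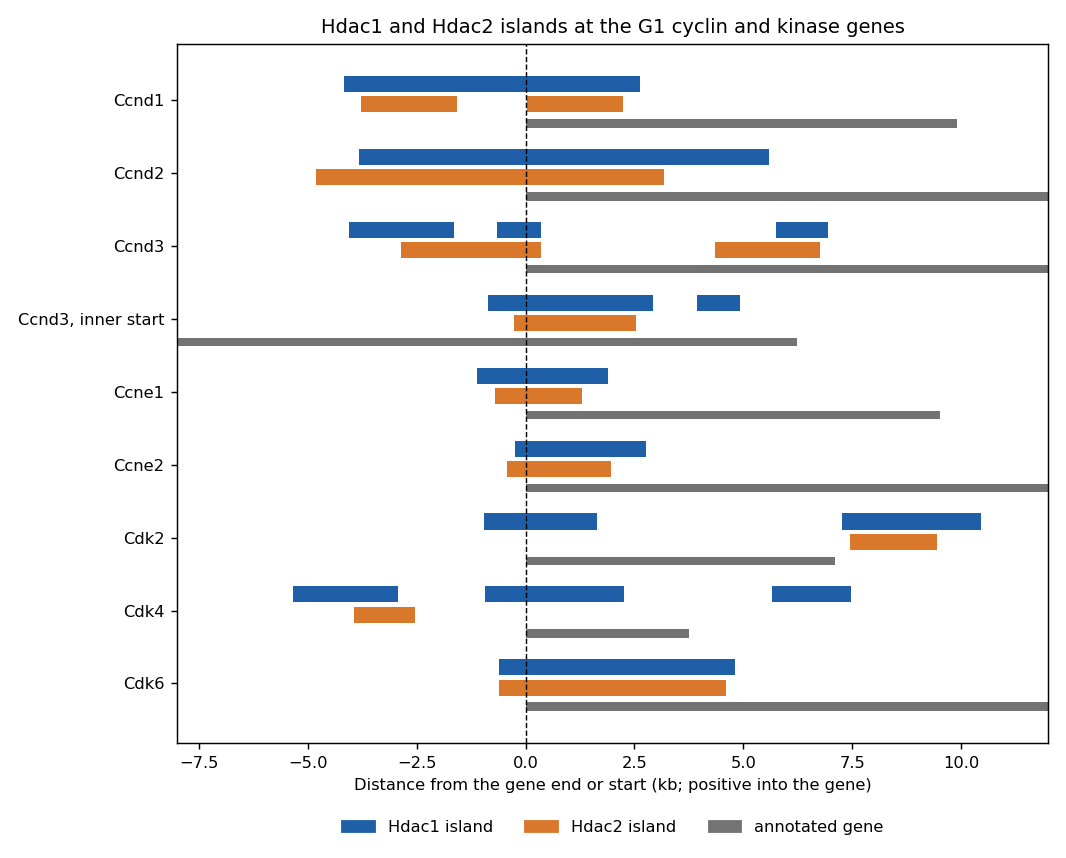
Islands of Hdac1 (blue) and Hdac2 (orange) around the end of each gene that carries its strongest Hdac1 end island, with the annotated gene in grey below. The horizontal axis is distance from that end in kb, positive into the gene, and Ccnd3 has a second line centred on its inner start. Both colours lie within 1 kb of the end shown at every gene but Cdk2 and Cdk4, where blue stands alone. The Hdac2 island of Cdk2 lies beyond its other end.

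Among the D-type cyclins, Ccnd2 carried the broadest islands at a gene end of the 8 genes in both lists. Ccnd2 encodes cyclin D2 and spans 127125162 to 127152188 on chromosome 6. Hdac1 covered 9.4 kb from 127146601 to 127156000, and the island had a value of 3.8e-163 at percentile 98.0. Hdac2 formed an island of 8.0 kb there, 127149001 to 127157000, with a value of 3.55e-40 at percentile 99.3. The islands shared 7.0 kb over the gene end at higher coordinates and the sequence outside it, where the long noncoding RNA gene 9330179D12Rik also has an end.

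Ccnd1, the cyclin D1 gene, lies on chromosome 7 from 144929931 to 144939831. One Hdac1 island of 6.8 kb, from 144937201 to 144944000, covered its end at higher coordinates with a value of 1.4e-80 at percentile 89.3. Hdac2 lay under the same stretch as separate islands. The one counted at the gene end, from 144937601 to 144939800, stopped just inside it and had a value of 5.29e-07 at percentile 33.3. The other, from 144941401 to 144943600, began 1.57 kb outside the gene, just beyond the 1 kb limit, and had the lower value, 7.72e-10 at percentile 64.0. Each of these Hdac2 islands was 2.2 kb wide and lay wholly within the Hdac1 island.

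Ccnd3, the cyclin D3 gene, differed from the other D-type genes in that its strongest islands lay inside the annotated gene. The gene spans 47505051 to 47599689 on chromosome 17 and has starts at 47505051 and 47593467 in the RefSeq promoter table, both on the plus strand. At the inner start an Hdac1 island of 3.8 kb, from 47592601 to 47596400, had a value of 5.91e-211 at percentile 99.1. The Hdac2 island there measured 2.8 kb, from 47593201 to 47596000, lay wholly within it and had a value of 7.29e-12 at percentile 77.9. At the outer start the islands ranked lower in their lists. The Hdac1 island was 1.0 kb wide with a value of 3.05e-28 at percentile 65.1, and the Hdac2 island of 3.2 kb had a value of 0.00103 at percentile 4.02. That Hdac2 island also covered an end of Taf8, which encodes a subunit of the general transcription factor TFIID, so it cannot be given to Ccnd3 alone. Inside the gene, 1 further pair of overlapping islands lay between 47509401 and 47512000, at percentile 66.8 for Hdac1 and 19.7 for Hdac2. Another Hdac1 island inside it, from 47597401 to 47598400 at percentile 20.4, overlapped no Hdac2 island. An end of Bysl, the next gene, lies within 1 kb of that island.

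Both E-type cyclin genes had Hdac1 islands among the strongest 2% of the list. Ccne2, on chromosome 4 from 11190433 to 11204779, had an Hdac1 island of 3.0 kb, from 11190201 to 11193200, with a value of 1.36e-246 at percentile 99.4. This was the highest rank of the 8 genes for Hdac1 at a gene end. The Hdac2 island of 2.4 kb, from 11190001 to 11192400, had a value of 2.1e-10 at percentile 68.5 and shared 2.2 kb with it. The noncoding RNA gene A630034I12Rik has an end within 1 kb of both islands.

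Ccne1 spans 38097984 to 38107490 on chromosome 7 and is transcribed from the minus strand. Its Hdac1 island of 3.0 kb, from 38105601 to 38108600, reached from 1.11 kb before the start to 1.89 kb after it and had a value of 2.55e-165 at percentile 98.1. The Hdac2 island of 2.0 kb, from 38106201 to 38108200, lay wholly within it, and its value of 2.86e-06 stood at percentile 24.9. The strongest Hdac2 island near Ccne1 was elsewhere, 78.2 kb from the gene at lower coordinates and inside Uri1, a prefoldin-like protein gene. It ran from 38018601 to 38019800 with a value of 7.83e-21 at percentile 96.1, within an Hdac1 island of 1.6 kb at percentile 94.3. Another overlapping pair 11.4 kb from Ccne1, outside any protein-coding gene, had percentiles of 77.6 for Hdac1 and 10.7 for Hdac2.

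The kinase genes fell into those with and without Hdac2 at the start. Cdk6, on chromosome 5 from 3341004 to 3531008, is the longest of the 8 genes at 190.0 kb, and its product pairs with D-type cyclins. The islands of both lists began at 3340401 and covered the start at 3343893 on the plus strand. The long noncoding RNA gene Gm36470 has an end within 1 kb of both islands. The Hdac1 island of 5.4 kb had a value of 3.97e-119 at percentile 95.3, and the Hdac2 island of 5.2 kb a value of 3.8e-21 at percentile 96.2. Their outer edges were the same at lower coordinates and lay at 3345800 for Hdac1 and 3345600 for Hdac2 on the other side.

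Cdk4, the other partner of D-type cyclins, was the only one of the 8 genes with Hdac1 and no Hdac2 island at an end, a state of 30.0% of all genes. It spans 127063535 to 127067288 on chromosome 10 with its start at 127063535 on the plus strand. The Hdac1 island of 3.2 kb, from 127062601 to 127065800, had a value of 8.94e-43 at percentile 75.1. The nearest Hdac2 island, of 1.4 kb, ended 2.54 kb before the start, at an end of Marchf9, a ubiquitin ligase gene, and was at percentile 53.2. It did not touch the Cdk4 Hdac1 island. Genes with Hdac1 at an end were ranked by the value of that island and cut into groups of equal size, and of the 1328 genes in the group of Cdk4, 47.5% had an Hdac2 island at an end.

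Cdk2, the partner of E-type cyclins, also lies on chromosome 10, from 128697938 to 128705051, with its start at 128705051 on the minus strand. An Hdac1 island of 2.6 kb, from 128703401 to 128706000, covered the start with a value of 1.14e-55 at percentile 81.2, and no Hdac2 island overlapped it. The Hdac2 island counted for Cdk2 was at its other end. It ran from 128695601 to 128697600, stopped 0.338 kb short of the gene and had a value of 0.0166 at percentile 0.741, close to the weakest of the list. An Hdac1 island of 3.2 kb at percentile 63.3 lay over it. Ends of Pmel, a melanosome protein gene, and of Rab5b, an endosome GTPase gene, lie within 1 kb of both, and the annotated span of Pmel contains the whole of Cdk2. The Hdac2 island at this end lay 7.45 kb from the Cdk2 start, and no other Hdac2 island was nearer.

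Starts could be set for 5 of the 8 genes, Ccnd3, Ccne1, Cdk2, Cdk4 and Cdk6, from the RefSeq promoter table of GRCm38.p6, the assembly of mm10. Ccnd1, Ccnd2 and Ccne2 have no entry. All 5 had an Hdac1 island within 1 kb of a start, against 61.4% of 17492 genes with an entry, and 3 had an Hdac2 island, against 31.7%. Cdk2 and Cdk4 had Hdac1 without Hdac2 at the start, a state of 30.3% of genes with an entry. The sequence before these starts is shown so that the starts with both proteins can be set beside the pair without Hdac2. The Ccnd3 outer start, which also had both proteins, is not shown, and its counts are given below. Each run holds the 250 bases before the start on the strand of the gene, 5′ to 3′, and capitals mark exact matches on either strand to GGGCGG (the Sp1 core), CCAAT (NF-Y), CACGTG (the E-box that Myc and related factors bind) or TATAAA (the TATA box). Also searched were TTTGGCGC and TTTCGCGC (E2F) and TGACGTCA (the cAMP response element), with no match to these exact letters in these windows. Other forms of the E2F site were not searched, so an E2F site is not shown to be absent.
Cdk2, chr10:128705052-128705301, minus strand, Hdac1 without Hdac2: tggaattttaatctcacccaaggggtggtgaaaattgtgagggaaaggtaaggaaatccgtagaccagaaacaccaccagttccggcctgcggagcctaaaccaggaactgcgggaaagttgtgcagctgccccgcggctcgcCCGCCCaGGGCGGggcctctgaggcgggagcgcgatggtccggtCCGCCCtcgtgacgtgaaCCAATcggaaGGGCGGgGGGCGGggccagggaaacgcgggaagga
Cdk4, chr10:127063285-127063534, plus strand, Hdac1 without Hdac2: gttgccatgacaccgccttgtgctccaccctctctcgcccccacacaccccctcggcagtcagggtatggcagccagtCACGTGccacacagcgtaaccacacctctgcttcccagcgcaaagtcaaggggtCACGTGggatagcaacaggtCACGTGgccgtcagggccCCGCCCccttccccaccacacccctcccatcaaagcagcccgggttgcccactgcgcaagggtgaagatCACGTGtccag
Cdk6, chr5:3343643-3343892, plus strand, both: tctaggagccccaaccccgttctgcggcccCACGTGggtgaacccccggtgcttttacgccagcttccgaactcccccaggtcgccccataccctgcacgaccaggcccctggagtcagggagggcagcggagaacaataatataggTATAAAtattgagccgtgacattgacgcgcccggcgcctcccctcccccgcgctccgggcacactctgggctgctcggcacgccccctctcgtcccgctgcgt
Ccne1, chr7:38107491-38107740, minus strand, both: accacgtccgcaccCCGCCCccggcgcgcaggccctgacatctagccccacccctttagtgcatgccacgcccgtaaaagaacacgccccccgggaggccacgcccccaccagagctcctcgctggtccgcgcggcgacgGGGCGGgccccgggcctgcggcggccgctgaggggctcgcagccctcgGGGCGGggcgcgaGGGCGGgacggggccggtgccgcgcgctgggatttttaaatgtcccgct
Ccnd3 inner start, chr17:47593217-47593466, plus strand, both: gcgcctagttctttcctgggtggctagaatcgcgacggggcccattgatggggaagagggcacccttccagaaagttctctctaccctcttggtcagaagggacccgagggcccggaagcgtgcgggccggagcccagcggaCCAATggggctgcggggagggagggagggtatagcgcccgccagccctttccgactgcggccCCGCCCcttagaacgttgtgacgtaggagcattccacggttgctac

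The E-box letters were most frequent in the Cdk4 window of those searched at the 5 genes. It held CACGTG 4 times, at bases -172, -118, -98 and -11 before the start, and only 4 of 21263 starts in the table (0.0188%) held it 4 or more times. At least 1 match was present at 6.63% of all starts, at 8.46% of starts with both proteins within 1 kb and at 8.51% of those with Hdac1 without Hdac2. Cdk6 held it once. GGGCGG occurred 5 times before Cdk2, 4 times before Ccne1, 2 times before the Ccnd3 outer start, once each before Cdk4 and the Ccnd3 inner start and 0 times before Cdk6, with 42.6% of all starts holding at least 1. CCAAT was found once before Cdk2 and once before the Ccnd3 inner start, as at 35.4% of all starts, and TATAAA once before Cdk6, as at 11.6%. TTTGGCGC was present at 0.508% of all starts, TTTCGCGC at 0.362% and TGACGTCA at 1.92%. A match to these letters is not a measured binding site.

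Across the table, starts with islands were richer in CpG, the dinucleotide that marks CpG islands at promoters, than starts without. The median count in the 250 bases was 19 at the 6552 starts with both proteins, 14 at the 6358 with Hdac1 without Hdac2 and 2 at the 8353 with no Hdac1 island. Ccne1 had 34 CpG, Cdk6 22, Cdk2 21, the Ccnd3 inner start 19, Cdk4 13 and the Ccnd3 outer start 11. Cdk4 and Cdk2, both without Hdac2, stood on either side of the median of the starts with both proteins. The share of G and C was between 59.6% at the Ccnd3 outer start and 76.0% at Ccne1, beside a median of 55.6% over all starts.

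**Figure D2:**
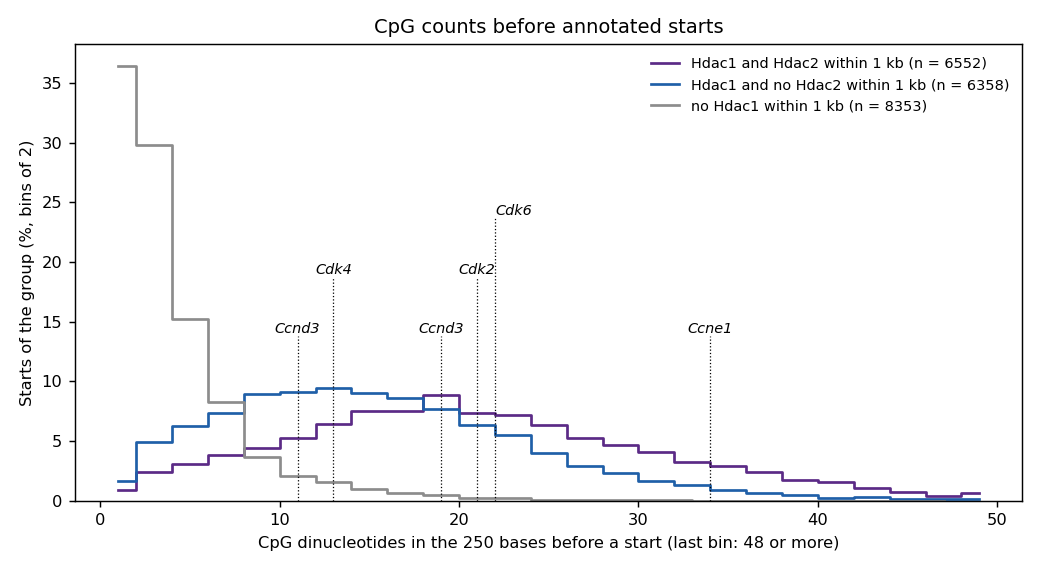
Share of starts (vertical axis, in percent of each group) by number of CpG dinucleotides in the 250 bases before the start (horizontal axis, bins of 2). Lines stand for starts with both proteins, with Hdac1 without Hdac2, and with no Hdac1 island within 1 kb, and dotted lines mark the 6 starts of Ccnd3, Ccne1, Cdk2, Cdk4 and Cdk6. All 6 lie at 11 or more CpG, above the median of 2 of the starts with no Hdac1 island.

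Within each list the genes could be ordered by the strongest island at a gene end. For Hdac1 at a gene end the order was Ccne2 (percentile 99.4), Ccne1 (98.1), Ccnd2 (98.0), Cdk6 (95.3), Ccnd1 (89.3), Cdk2 (81.2), Cdk4 (75.1) and Ccnd3 (65.1). For Hdac2 it was Ccnd2 (99.3), Cdk6 (96.2), Ccne2 (68.5), Ccnd1 (33.3), Ccne1 (24.9), Ccnd3 (4.02) and Cdk2 (0.741), with no island for Cdk4. The E-type genes and Ccnd2 headed the Hdac1 order, and Ccnd2 and Cdk6 headed the Hdac2 order. Both orders leave out the inner start of Ccnd3, where Hdac1 was at percentile 99.1 and Hdac2 at 77.9. The Hdac2 order also leaves out the island at percentile 64.0 just outside Ccnd1. With 1 library each, no spread is available to say which neighbours in either order differ.

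**Figure D3:**
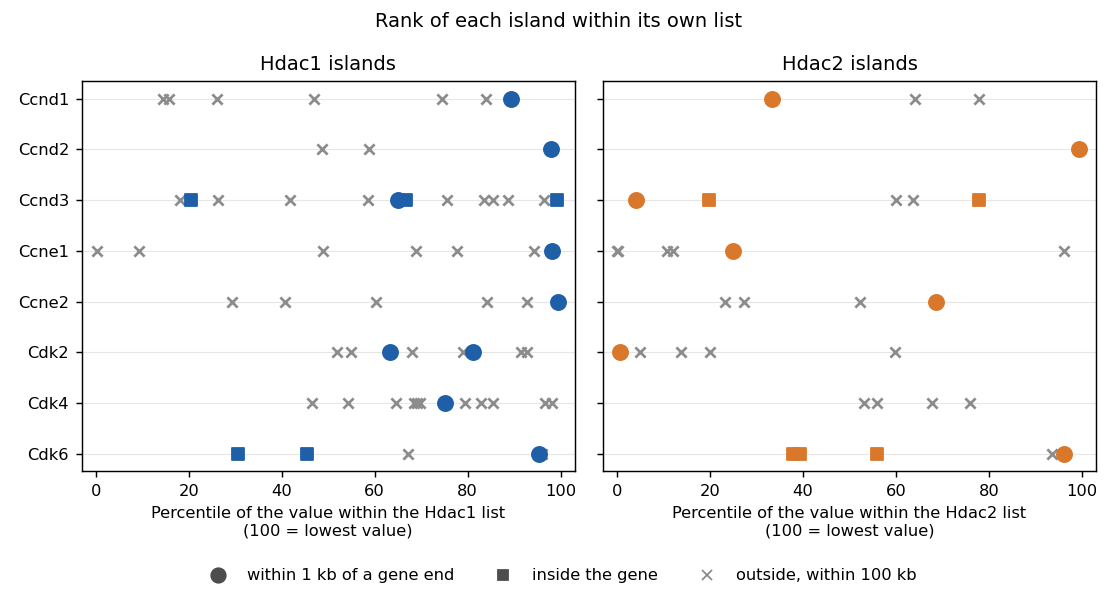
Percentile of every island in or within 100 kb of each gene within its own list (horizontal axes, 100 being the lowest value), with Hdac1 on the left and Hdac2 on the right. Filled circles are islands within 1 kb of a gene end, squares islands inside the gene, and grey crosses islands outside it. On the left the circles reach 99.4 at Ccne2, and on the right they reach 99.3 at Ccnd2.

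The gene whose pair of percentiles was nearest to that of each cyclin or kinase was sought among the other 6724 genes with end islands of both proteins. Nearest to Ccnd2 was Kdm2a (97.7 and 99.4 for Hdac1 and Hdac2), to Cdk6 Tent5a (95.5 and 96.1), to Ccne2 Lin54 (99.3 and 68.7) and to Ccne1 Zwilch (97.7 and 24.8). Nearest to Ccnd1 was Spred3, to Ccnd3 Mphosph6 and to Cdk2 Fam122a. With so many genes searched a near neighbour is always found, so these names describe where each gene lay and show no particular likeness.

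Islands inside the gene were found at the 2 longest of the genes. An island inside the gene, more than 1 kb from both ends, was present for Hdac1 at Ccnd3 and Cdk6, 2 of 8 genes, against 20.2% of all genes. The same 2 of 8 genes had one for Hdac2, against 13.2%. Within Cdk6, Hdac1 islands of 0.6 kb and 1.4 kb at percentiles 45.4 and 30.6 lay under broader Hdac2 islands of 2.8 kb and 2.2 kb at percentiles 39.4 and 37.8. The long noncoding RNA gene Gm29868 has an end within 1 kb of the 0.6 kb Hdac1 island and the 2.8 kb Hdac2 island. A further Hdac2 island in Cdk6, of 3.2 kb from 3435801 to 3439000, had a value of 5.23e-09 at percentile 55.9 and no Hdac1 island under it.

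Counting each gene with 100 kb on either side, 62 Hdac1 islands and 33 Hdac2 islands were found, all distinct. All 8 genes had at least 1 of each, as 85.4% of all genes had for Hdac1 and 85.5% for Hdac2. The median per gene was 7.0 for Hdac1 and 4.5 for Hdac2, beside 5.0 and 2.0 over all genes. Ccnd3 had the most Hdac1 islands, 13, with 5 of Hdac2, and Cdk4 followed with 12 and 4. Cdk2 had 9 and 5, Ccne1 7 and 6, Ccnd1 7 and 3, Ccne2 6 and 4, and Cdk6 5 and 5. Ccnd2 had the fewest, 3 and 1, although its end islands were the broadest. Ccnd3, Cdk4 and Cdk2 also had the most other protein-coding genes within 100 kb, 11, 11 and 10, and the other 5 genes had between 2 and 4.

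Most islands outside the genes lay at ends of neighbours. Of 48 Hdac1 islands in the flanks, 30 were at an end of another protein-coding gene, 9 inside one only and 9 outside all. Of 21 Hdac2 islands in the flanks, the numbers were 13, 5 and 3. No matching share for the flanks of other genes is given, so these counts are not read as a trait of these loci. Around Ccnd1, Hdac1 islands lay at ends of the growth factor genes Fgf3, Fgf4 and Fgf15, and the one at Fgf3 overlapped an Hdac2 island at percentile 77.8, 90.3 kb from Ccnd1. Next to Ccne2, Trp53inp1, a p53 target gene, had both, at percentiles 92.8 for Hdac1 and 27.4 for Hdac2. Near Ccnd2, the metabolic p53 target gene Tigar had Hdac1 alone. Around Cdk4, an Hdac1 island at percentile 96.6 lay at ends of Mettl1, an RNA methyltransferase gene, and Eef1akmt3, with no Hdac2 island overlapping it. Of the 11 neighbours of Cdk4, 9 had Hdac1 and 3 had Hdac2 at an end, and this Hdac2 share is near the 31.7% of all genes.

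**Figure D4:**
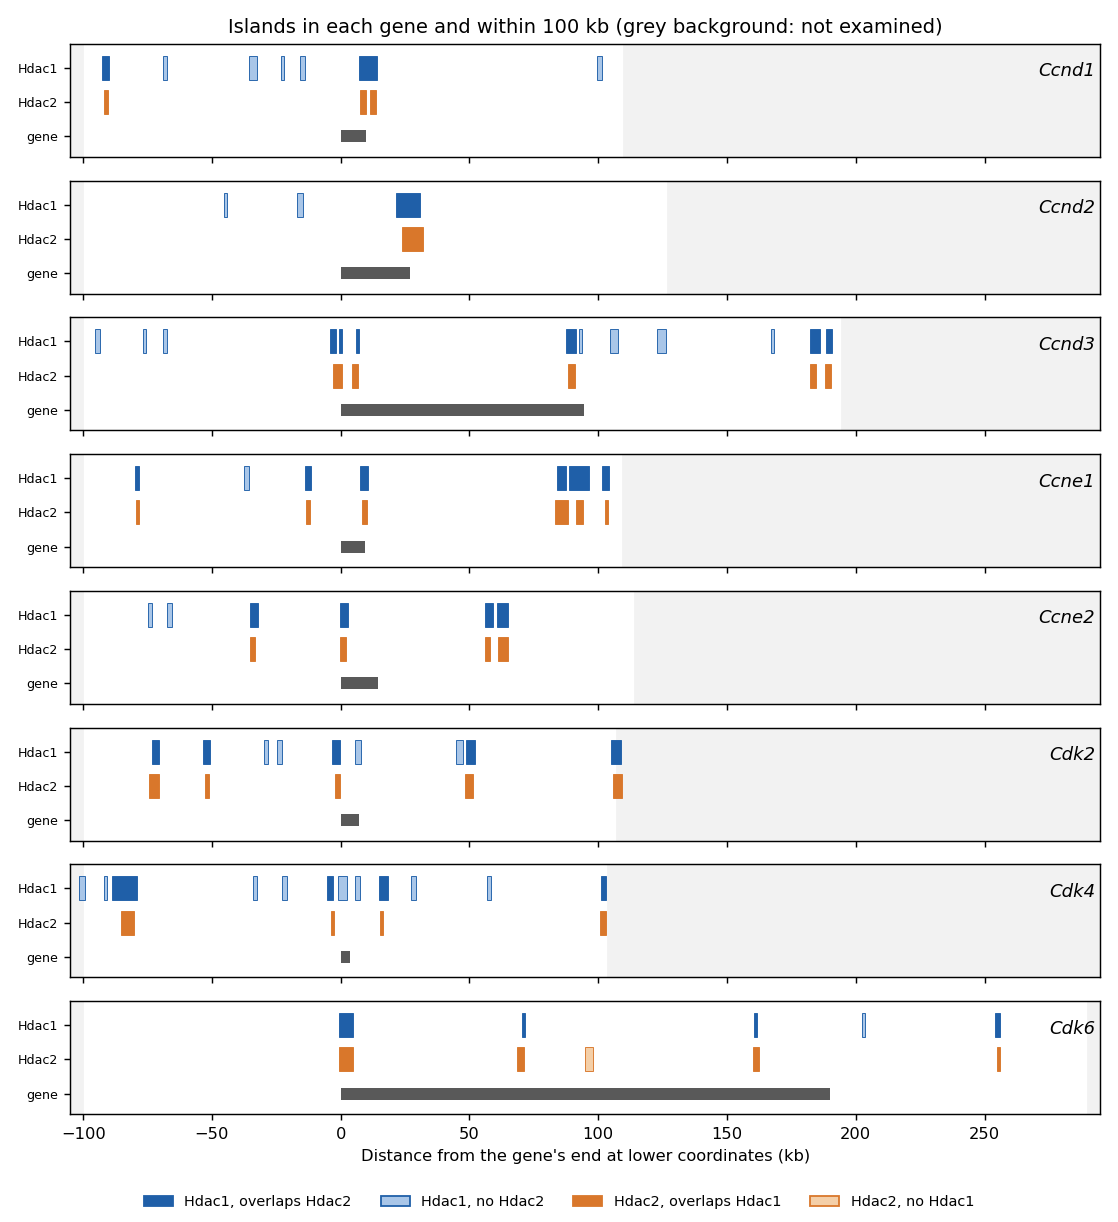
Islands in each gene and in 100 kb on either side, with distance in kb from the gene end at lower coordinates on the horizontal axis. Dark bars overlap an island of the other list and pale bars do not, and islands under 1.2 kb are drawn 1.2 kb wide. Pale bars make up 30 of 62 Hdac1 islands and 1 of 33 Hdac2 islands, the one inside Cdk6.

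Hdac2 islands of these loci nearly all lay on Hdac1. Of the 33, 32 overlapped an Hdac1 island (97.0%, 95% Wilson interval 84.7 to 99.5%), where 59.4% of all Hdac2 islands and 82.1% of the 11604 Hdac2 islands within 100 kb of any gene with both proteins at an end did so. The exception was the island inside Cdk6. Of the 62 Hdac1 islands, 32 overlapped Hdac2 (51.6%, interval 39.4 to 63.6%), beside 39.8% of the whole list and 44.3% of those near genes with both proteins. Hdac1 islands that overlapped Hdac2 had a median percentile of 79.2 in the Hdac1 list, and those that did not had 56.8. Over all genes with Hdac1 at an end, Hdac2 was likewise more frequent at higher Hdac1 ranks. The 2 medians are therefore not read as a trait of these loci. The Wilson intervals cover counting error alone. Neighbouring islands share their locus, so the intervals can be too narrow to judge the 97.0% against the 82.1%. Which background library the authors set each list against is unknown here, and its part in the overlap was not tested.

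Islands at the other genes of the G1 to S pathway were counted in a list of 39 genes. An Hdac1 island lay at an end of 37 and an Hdac2 island at 26 (94.9% and 66.7%, beside 60.7% and 31.7% of all genes), with a median percentile of 94.8 and 61.3 where present. The exceptions for Hdac1 were Ccna1, the cyclin A1 gene, and Skp2, which encodes the subunit of a ubiquitin ligase that recognises Cdkn1b. Among the partners upstream, both Myc genes had both proteins. At Myc the Hdac1 island measured 7.4 kb (3e-235) and the Hdac2 island 5.0 kb (2.94e-21). At Mycn the Hdac1 island measured 7.2 kb (3.09e-224) and the Hdac2 island 1.4 kb (9.65e-29).

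The inhibitors of the G1 kinases had Hdac1 at 7 of 7 genes and Hdac2 at 4. The shares of all genes, 60.7% for Hdac1 and 31.7% for Hdac2, stand beside this and each small group below. Cdkn1a, which encodes the p53-induced inhibitor p21, Cdkn1c and Cdkn2b had Hdac1 alone. At Cdkn1b the strongest end islands did not overlap, Hdac1 running from 134923601 to 134930000 and Hdac2 from 134920001 to 134922000. Among the pocket proteins, targets of the kinases, Rb1 and Rbl1 had both, and Rbl2 had Hdac1 alone. For Rb1 the islands lay at opposite ends of the gene. The E2F and DP factors, some of which the pocket proteins hold, had Hdac1 at 10 of 10 and Hdac2 at 8, with E2f3 listed at 0 for Hdac1, the lowest value possible, and E2f4 and E2f6 without Hdac2. The 3 genes of the CDK-activating kinase, Cdk7, Ccnh and Mnat1, had both. So did Cdc25a and Cdc25c of the Cdc25 phosphatases, which remove inhibitory phosphates from the kinases, while Cdc25b had Hdac1 alone. Of the 6 ubiquitin ligase genes, 5 had Hdac1 and 4 had Hdac2 (Fbxw7, Cul1, Fbxo4 and Cks1b), and Ambra1, which directs breakdown of D-type cyclins, had Hdac1 alone.

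Of the cyclins and the kinase of later phases, 4 of 5 had Hdac1, beside 60.7% of all genes, and 1 had Hdac2. Ccna2, which acts in S phase, had both, with Hdac1 over 2.4 kb (6.47e-206) and Hdac2 over 1.0 kb (5.74e-08). The mitotic genes Ccnb1, Ccnb2 and Cdk1 had Hdac1 islands at percentiles 98.2, 97.5 and 98.5 and no Hdac2 island at an end. Hdac2 was thus at 1 of 5 genes of this group and at 7 of the 8 G1 genes, beside 31.7% of all genes. The 7 include Cdk2, whose Hdac2 island lay away from its start at percentile 0.741, and Ccnd3, with an end island at 4.02. With the upper 50% of each list, 3 of the 8 G1 genes had one. The Hdac2 island of Ccna2 was at percentile 45.1. The groups are small and rest on 1 library per antibody, and the difference was not tested.

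**Figure D5:**
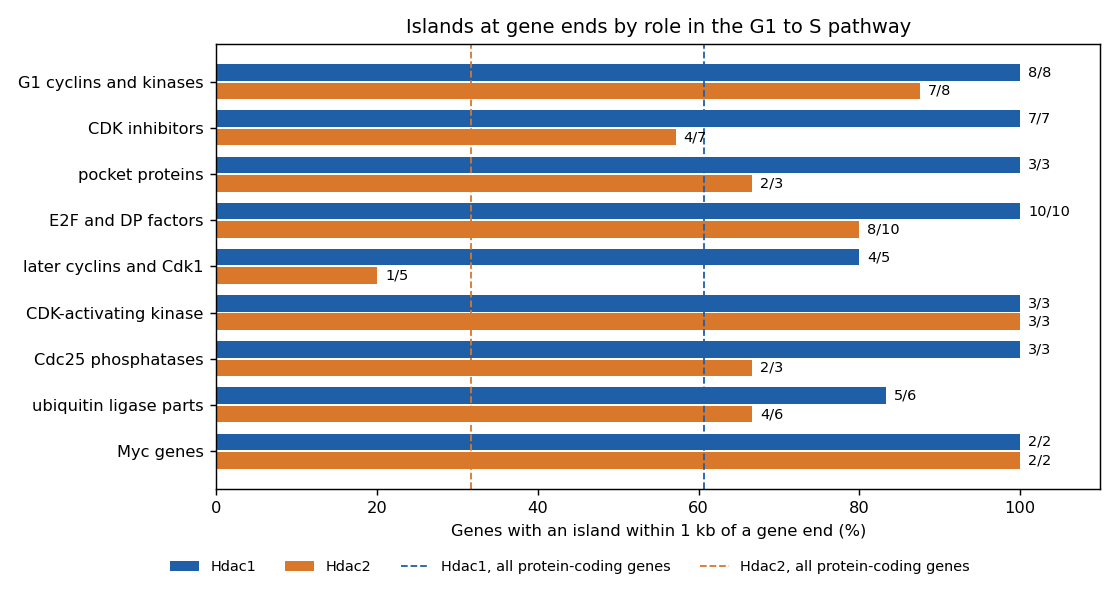
Share of genes with an Hdac1 (blue) or Hdac2 (orange) island within 1 kb of a gene end, by role in the G1 to S pathway, with counts beside the bars. Dashed lines mark 60.7% for Hdac1 and 31.7% for Hdac2 over all protein-coding genes. Every Hdac1 bar lies above its line, and for Hdac2 only the bar of later cyclins and Cdk1, at 1 of 5, lies below.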

How the data were processed

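Chromatin immunoprecipitation and sequencing was done for Hdac1 and Hdac2 in E16.5 nephron progenitor cells, 1 library each. Per the labels' protocols, libraries were made from 500 pg of DNA with at least 12 cycles of amplification, and IgG and H3K4me3 controls, not analysed here, were run in parallel. The amounts of antibody are those in the names of the deposited lists. SICER, bedtools 2.17, SAMtools 1.3.1, BWA 0.7.5a and FastQC are named, with mm10 as build, per the submitters' processing notes. SICER builds islands from fixed windows, so their edges are coarse. SICER's settings, its background library, any pooling and the depth were not given in the sources used.

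The lists that the authors deposited hold 30182 Hdac1 and 20307 Hdac2 islands. Every island carries its p-value or q-value from the authors, and nothing states which. Starts in the files count from 0 and are multiples of 200 bp. Positions here are 1-based.

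Genes came from the RefSeq table of GRCm38.p6, which gives spans without strand. Starts and sequences of 17492 genes came from its promoter table. Overlap means at least 1 bp shared. Where a gene had several end islands, the one with the lowest value was used. Named genes were the 8 cyclin and kinase genes, their neighbours at islands and the pathway list. The genes and lists were chosen with earlier results of these data known. Counting was checked on simulated islands and against bedtools 2.31.1. The work was done with pandas 2.3.3, numpy 2.4.6 and scipy 1.17.1 in Python 3.11.15, and plots with matplotlib 3.10.9. Alternatives were other windows and flanks, starts only, the upper 50% of each list, equal list lengths, islands merged within 1 kb, islands up to 20 kb and overlap by 50% of the shorter island.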

Additional observations from a re-analysis of the deposited data

How the results depend on the processing

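Of 84 recomputed values for 12 counts, 70 stayed within 1.5 times the reported one. With starts only, Hdac1 was at 5 of the 5 genes with an entry, Hdac2 at 3 and both at 3, because fewer genes could be examined and the Cdk2 island at its other end dropped out. With the upper 50% of each list, Hdac2 was at an end of 3 genes, both proteins at 3, and overlapping strongest islands at 3. Hdac2 was then at 16 of 39 pathway genes and 15.8% of all genes, 1 gene had Hdac1 inside, and 17 Hdac2 islands remained within 100 kb. Hdac1 stayed at 8 of 8 genes. Flanks of 50 kb gave 38 Hdac1 and 20 Hdac2 islands, and 200 kb gave 104 and 55. A 5 kb window counted Hdac2 at 8 of 8 genes, beside 38.4% of all genes. It reached the island beside Cdk4, which lies at an end of Marchf9. No paired analysis was possible because each antibody had 1 library. Unknown depth limits what a missing Hdac2 island shows: at Cdk4 and at the Cdk2 start none was called in this list, which does not show that Hdac2 was absent.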

Other observations

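The weakest island of each list near the 8 genes lay beside Ccne1. Between 73.7 kb and 93.1 kb from Ccne1 at higher coordinates, in and beside 1600014C10Rik, Hdac1 islands of 7.8 kb and 2.8 kb were at percentiles 0.306 and 9.37, and Hdac2 islands of 5.2 kb, 2.8 kb and 1.0 kb were at 0.209, 0.0246 and 12.0. The first of the Hdac1 islands was broader than any other Hdac1 island within 100 kb of Ccne1, and its value was 0.0374. The Hdac2 islands of 5.2 kb and 2.8 kb had values of 0.0536 and 0.0929 and are among the 33 counted above. A further Hdac1 island there, of 3.6 kb at an end of 1600014C10Rik, was at percentile 48.8.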
